A study of Mus musculus with 16 samples.

Results

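Livers that lack the microRNA miR-33 were compared between mice fed a high-fat diet and mice fed chow. The comparison used 9 of the 16 liver RNA libraries of the study, all those labelled as liver knockout of miR-33 from C57BL/6 mice, of which 5 were labelled high-fat diet and 4 chow diet. Both groups carried the deletion, so a difference between them lies within knockout liver and does not measure the loss of miR-33. The other 7 libraries, wild-type liver on high-fat diet (n = 4) and on chow (n = 3), were used to estimate the spread between libraries and to test whether the diet effect differed between genotypes. The deposited counts are named for Alb-Cre, a Cre recombinase driven by the albumin promoter, which acts in hepatocytes, and is known to leave the gene in other liver cells. The labels give no age, sex or length of feeding, and nothing in them says that the libraries came from separate animals. The p-values therefore measure only the spread between these libraries, which may be technical. The numbers in the sample titles run in different series on the 2 diets, so diet and title series cannot be told apart.

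The liver takes up and makes fatty acids, stores them as triglyceride, burns them in mitochondria and peroxisomes and exports them in lipoproteins. A diet rich in fat is known to fill hepatocytes with lipid, and with time to draw macrophages into the liver and to start the deposition of collagen by stellate cells. The microRNA miR-33 lies in an intron of Srebf2, the gene of a transcription factor that drives cholesterol synthesis, and is known to repress the cholesterol exporter Abca1 and genes of fatty acid oxidation. It is shown here because every mouse in the comparison was bred to lack it in hepatocytes. The 2 mature strands, from RefSeq on GRCm38.p6, are printed 5′ to 3′ with the seed, bases 2 to 8, in capitals, and lie on the plus strand at chr15:82198127-82198147 and chr15:82198167-82198188.
mmu-miR-33-5p: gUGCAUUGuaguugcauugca
mmu-miR-33-3p: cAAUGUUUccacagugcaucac

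Mature miR-33 was not analysed here, and the deletion is known from the labels alone. Its host gene Srebf2 (chr15:82147266-82205376, mm10) had 47.3, 59.1, 57.7 and 52.0 CPM in the 4 chow libraries and 42.1, 40.7, 50.1, 54.4 and 59.9 CPM in the 5 high-fat libraries, where CPM is the usual count scaled to the TMM-adjusted library size. The groups overlapped, and the log2 fold change of high-fat over chow was -0.13 ± 0.11 (SE, edgeR adjusted p = 0.38). Here and below, values stand in the order of replicates 1 to 4 on chow and 1 to 5 on high-fat diet. These numbers follow accession order and pair nothing.

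Library totals were 15888436 to 26821573 estimated counts on chow and 20993930 to 29469645 on high-fat diet (exact two-sided permutation test, p = 0.27). The share of counts from CT010467.1, a ribosomal RNA gene, was 11.3% to 14.6% on chow and 0.637% to 12.3% on high-fat diet (exact permutation p = 0.048), and its part in the results was not tested beyond leaving that gene out. The 50 most abundant genes took 43.6% to 45.2% of counts on chow and 34.7% to 42.5% on high-fat diet, without overlap (exact permutation p = 0.016). CT010467.1 was among the genes ranked, so this share is not independent of the one above. High-fat replicate 5 was lowest in both shares, at 0.637% and 34.7%. The part of the difference in the most abundant genes was not tested. All 4 tested genes of the sex chromosome list, Ddx3y, Eif2s3y, Kdm5d and Uty on the Y chromosome, had counts in all 9 libraries and did not pass the test, although 1 was higher without high-fat replicate 4. On principal component 1, which held 59% of the variance of the 2000 most variable genes, the chow knockout libraries lay between 38.5 and 44.7 and high-fat replicates 2 to 5 between -37.1 and -29.2. High-fat replicate 1 stood apart from its group, at -8.17 on this component and -35.2 on component 3. Of the 5650 genes that passed the test described next, replicate 1 was the high-fat library nearest to the chow side in 1944, or 34.4%, against 9.54% to 26.2% for each of the other 4. No measurement used here checks its diet label, and whether the label is right was not tested. Its levels of the macrophage genes Gpnmb and Mmp12, given below, lay far above all chow libraries. Both genes stand among the largest rises without overlap, where every high-fat library lies above chow by choice. In Pparg and Cd36, also given below, replicate 1 lay among the chow values. None of these genes tests the label. Some results that rest on replicate 1 are given with and without it. Pparg, Cd36, Apoa4, Acta2 and Nqo1 are given below with all libraries. Without replicate 1 their log2 fold changes were 1.10, 1.10, 1.86, 2.24 and 1.25, and each still passed.

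**Figure D1:**
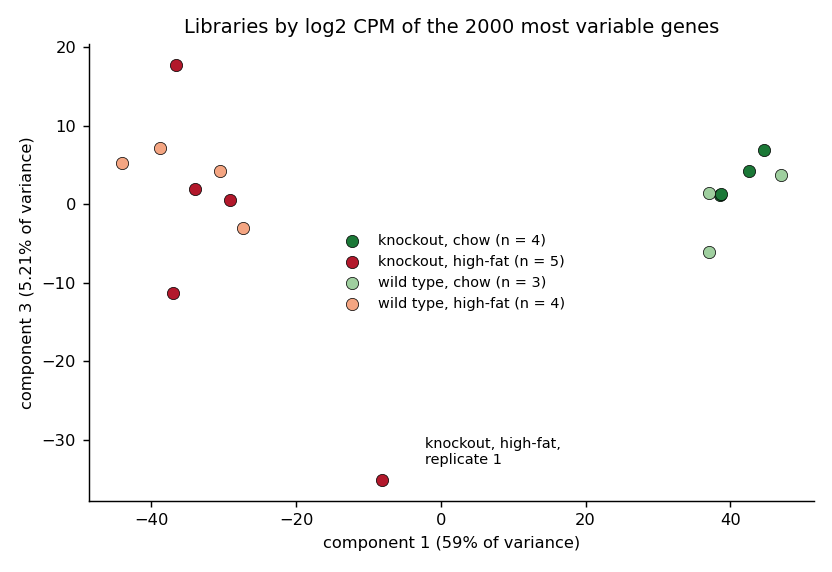
Each point is 1 library, placed by principal component 1 (x axis) and 3 (y axis) of log2 CPM over the 2000 most variable genes, coloured by diet and genotype. Chow knockout libraries lie at 38.5 to 44.7 on component 1, and high-fat knockout replicate 1 lies apart at -8.17 and -35.2.

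A large share of liver genes differed between the diets in knockout mice. Of 16830 genes tested, 5650 (33.6%) passed at an adjusted p of at most 0.05, 2922 higher (17.4%) and 2728 lower (16.2%) on high-fat diet. Changes of at least 2-fold were more often rises: 1220 genes (7.25%) were higher and 535 (3.18%) lower, and beyond 4-fold 357 were higher and 91 lower. The 2 groups of libraries did not overlap in 4460 genes (26.5%), of which 4094 also passed. The median log2 fold change of all genes was -0.01, against which the medians of gene lists are read below. These shares are the background for every count that follows, and a list whose shares lie near 17.4% higher and 16.2% lower moved about as often as genes at large.

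The genes with the largest rises had varied functions. They were taken only from genes in which the 2 groups did not overlap, so their separation follows from the choice. Cyp2b13 (chr7:26061497-26096197, mm10), a cytochrome P450 gene known to be expressed more in female than in male mouse liver, had 0.109, 0.215, 0 and 0.0442 CPM on chow and 17.3, 60.7, 33.6, 44.3 and 21.1 CPM on high-fat diet. All high-fat libraries lay far above all chow libraries, with a log2 fold change of 8.37 ± 0.61 (adjusted p = 5.9e-07). Sprr1a (chr3:92483952-92485895), a gene of the cornified envelope of epithelia, had 1 count over the 4 chow libraries together and 1311 over the 5 high-fat libraries, a scaled ratio of 720 with a 95% counting interval of 129 to 28478. Within the high-fat group it ran at 1.12, 12.3, 9.41, 13.8 and 7.27 CPM, lowest in replicate 1. A4gnt, which encodes a glycosyltransferase of gastric mucins, had 2 counts on chow against 805, a ratio of 221 (61.0 to 1830). These intervals cover counting error only. Further large rises, all without overlap, were Gsta1, a glutathione transferase (6.27 on the log2 scale, as all values here), Ttc39a (5.85), the ephrin receptor gene Ephb2 (5.44), the macrophage glycoprotein gene Gpnmb (5.43), the acetylcholine receptor subunit gene Chrna4 (5.34), Mmp12 (5.19), Sdcbp2 (4.93), the peroxisomal oxidase gene Hao2 (4.91) and the collagenase gene Mmp13 (4.86).

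The largest falls were mostly in P450 and fatty acid genes. They too were taken only from genes without overlap. Cyp4a14 (chr4:115486200-115496142, mm10), a fatty acid omega-hydroxylase and a classic target of the nuclear receptor PPAR alpha, had 7325, 6162, 7407 and 4101 CPM on chow and 124, 468, 199, 401 and 441 CPM on high-fat diet. Its log2 fold change was -4.26 ± 0.37 (adjusted p = 3e-06), which is 19.1-fold lower, and the groups did not overlap. Next to it in size were its neighbours Cyp4a10 (-3.98) and Cyp4a31 (-2.96), the acyl-CoA thioesterase gene Acot1 (-3.38), the fatty acid elongase gene Elovl3 (-3.20), Srgap3 (-4.00), the insulin-like growth factor binding protein gene Igfbp2 (-2.95) and the fatty acid transporter gene Slc27a1 (-2.69). Cyp2c69 (-4.54), Cyp2c54 (-3.01), Cyp4a12b (-2.69) and the transcription factor gene Zbtb16 (-2.57) also fell, but with 1 library far from its group: Cyp2c69 rested on 1.52, 1.55, 8.07 and 1.46 CPM on chow, and the other three had their highest high-fat value in replicate 1. The call of Cyp2c54 was lost with only the knockout libraries fitted, and that of Cyp4a12b there and without any of 7 single libraries. The Cyp4a, Cyp2b and Cyp2c genes are families of near-identical copies, among which the counting could split reads, so values of single members are uncertain.

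**Figure D2:**
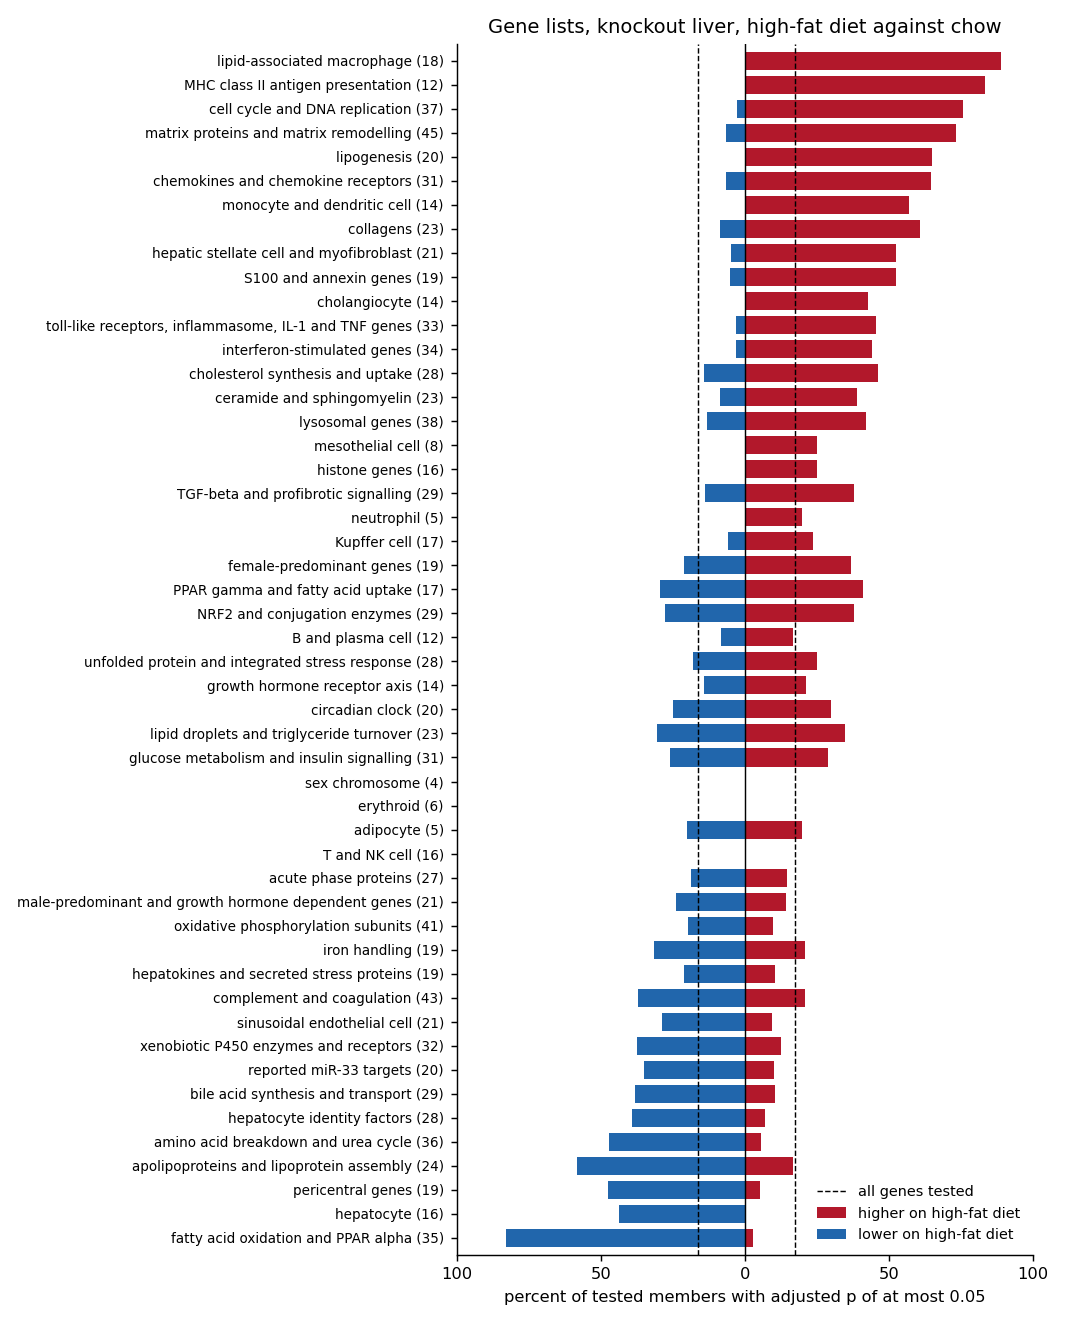
Bars give the percent of tested members of each gene list (number tested in brackets) that passed at an adjusted p of at most 0.05, higher on high-fat diet to the right and lower to the left. Dashed lines mark the same shares over all 16830 genes, 17.4% and 16.2%, which the lists of lipid-associated macrophage genes (right) and fatty acid oxidation (left) exceed by most.

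Genes of fatty acid synthesis rose in knockout liver on high-fat diet. Of the 20 genes of lipogenesis, 13 rose and none fell, with a median log2 fold change of 0.95, and 1 fell without high-fat replicate 4. Thrsp (chr7:97412938-97417730, mm10), whose product Spot 14 promotes fatty acid synthesis, had 11.4, 12.9, 26.98 and 10.5 CPM on chow and 344, 312, 550.3, 528 and 394 CPM on high-fat diet, the largest rise of the list (4.80 ± 0.48, adjusted p = 1.2e-05). Its high-fat libraries all lay far above the highest chow library. Fasn, the gene of fatty acid synthase, had 57.7, 99.9, 103 and 48.2 CPM on chow and 167, 431, 911, 684 and 632 CPM on high-fat diet. All 5 high-fat values exceeded all 4 chow values, with replicate 1 the lowest of the 5, and the log2 fold change was 2.87 ± 0.42 (adjusted p = 0.00023). The lipase gene Pnpla3, known for its link to fatty liver, rose by 3.79 ± 0.66 from 0.489, 0.172, 0.283 and 0.221 CPM to 0.702, 1.74, 8.04, 5.58 and 3.70 CPM. Srebf1, the gene of the insulin-driven activator of this pathway, rose by 2.43 ± 0.25, Elovl6 by 2.05 ± 0.36, the citrate lyase gene Acly by 1.89 ± 0.24 and the malic enzyme gene Me1 by 0.66 ± 0.22. Scd1, the stearoyl-CoA desaturase, had 11255, 7355, 4099 and 11184 CPM on chow and 5859, 19731, 23488, 15935 and 14170 CPM on high-fat diet and did not pass (0.90 ± 0.35, adjusted p = 0.063). Replicate 1 lay below 3 of the 4 chow libraries for this gene, and without it the value was 1.14 (adjusted p = 0.0041).

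Of the 28 genes of cholesterol synthesis and uptake, 13 rose and 4 fell, with a median of 0.67. Fdps, which makes farnesyl diphosphate, had 14.2, 22.7, 14.02 and 12.7 CPM on chow and 46.7, 34.6, 129, 75.2 and 119 CPM on high-fat diet (2.35 ± 0.38, adjusted p = 0.00049). The groups did not overlap, although replicates 1 and 2 lay well below the other high-fat libraries. Sqle, the squalene epoxidase, ranged from 4.32 to 35.8 CPM within the high-fat group and did not pass (0.26 ± 0.60). The 4 members that fell were Tm7sf2 (-1.35) and Hsd17b7 (-0.63), late enzymes of the pathway, and Insig2 (-0.58) and Scap (-0.60), which hold and escort the SREBP proteins. In wild type, where 15.2% of all genes rose and 14.2% fell, 5 members rose and 4 fell, with a median of 0.14. No member differed between genotypes at an adjusted p of at most 0.05, and 3 of the 28 did at an unadjusted p under 0.05, against 6.6% of all genes.

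Genes of fatty acid oxidation fell almost throughout. Of 35 members, 29 fell, 1 rose and 5 did not pass, with a median of -0.73. Cyp4a10 had 3641, 2702, 5030 and 2300.1 CPM on chow and 125.9, 265, 237, 213 and 243 CPM on high-fat diet (-3.98 ± 0.25, adjusted p = 1.2e-07), and Acot1, which frees fatty acids from coenzyme A, had 292, 248.9, 204 and 187 CPM and 20.7, 26.5, 22.4, 19.5 and 22.97 CPM (-3.38 ± 0.19, adjusted p = 3.3e-08). For both, the highest high-fat library was far below the lowest chow library. The peroxisomal enzyme gene Ehhadh fell (-2.04 ± 0.23). Values of the mitochondrial genes, which also fell, lay nearer to 0. Acadm had -0.95 ± 0.09, Cpt2 -0.93 ± 0.07, Hadha -0.85 ± 0.09 and Cpt1a, the entry step, -0.46 ± 0.12. Ppara itself had 222, 219.5, 224 and 225 CPM on chow and 220.5, 200.2, 201, 178 and 205 CPM on high-fat diet and did not pass (-0.15 ± 0.08, adjusted p = 0.18). The 1 member that rose was Ucp2 (0.80), an uncoupling protein that macrophages also express.

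Lipid droplet genes moved in both directions, with 8 of 23 higher and 7 lower and a median of -0.05. Without high-fat replicate 3, 5 were higher. Cidec, whose product enlarges lipid droplets, had 20.4, 8.96, 20.2 and 18.9 CPM on chow and 22.7, 50.5, 53.4, 55.0 and 65.2 CPM on high-fat diet (1.54 ± 0.31, adjusted p = 0.0019). Mogat1, a monoacylglycerol acyltransferase, rose from 3.75, 2.02, 1.77 and 3.36 CPM to 5.99, 8.06, 10.9, 5.83 and 6.11 CPM (1.43 ± 0.24, adjusted p = 0.00022). Plin2, the main coat protein of hepatocyte lipid droplets, had 928, 847, 918 and 966 CPM on chow and 518, 994, 1012, 934 and 952 CPM on high-fat diet and did not pass (-0.05 ± 0.15, adjusted p = 0.82). Its replicate 1 lay far below the rest of the group, and without it the value was 0.11 (adjusted p = 0.38). Genes of PPAR gamma and fatty acid uptake rose in 7 of 17 and fell in 5. Pparg had 8.64, 8.06, 5.24 and 9.23 CPM and 9.03, 17.3, 17.6, 16.7 and 14.9 CPM (0.95 ± 0.20, adjusted p = 0.0016), and the fatty acid translocase gene Cd36 had 122, 79.8, 47.0 and 52.3 CPM and 90.0, 149.7, 163, 153 and 171 CPM (0.95 ± 0.27, adjusted p = 0.016). In both genes replicate 1 lay among the chow values and the other 4 high-fat libraries above all of them. Aqp7, a glycerol channel, had 3 counts on chow and 184 on high-fat diet, a ratio of 33.7 (95% counting interval 11.4 to 165).

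Of 20 genes reported as targets of miR-33, 2 rose and 7 fell on high-fat diet, with a median of -0.15. Abca1, the cholesterol exporter, had 245, 276, 271 and 289 CPM on chow and 376, 321, 353, 285 and 339 CPM on high-fat diet, a small rise with overlapping groups (0.31 ± 0.08, adjusted p = 0.0075). The related exporter gene Abcg1, which macrophages express strongly, rose by 1.07 ± 0.18. Crot, a peroxisomal carnitine acyltransferase, had 1272, 1410.4, 1206 and 1473 CPM and 478, 611, 512, 502 and 658 CPM, with every high-fat library below every chow library (-1.28 ± 0.09, adjusted p = 6.9e-08). Irs2, an adaptor of the insulin receptor, fell from 36.7, 38.8, 57.6 and 61.0 CPM to 26.4, 16.6, 23.3, 16.5 and 20.5 CPM (-1.23 ± 0.24, adjusted p = 0.0011). Pck1 and G6pc, enzymes of glucose production on the same list, fell (-1.26 ± 0.23 and -1.20 ± 0.29). None of the 20 differed between genotypes, at an unadjusted p under 0.05 or after adjustment.

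Of 29 bile acid genes, 11 fell and 3 rose, and the 3 became 5 without high-fat replicate 1, with DESeq2 or with only the knockout libraries fitted. Cyp8b1, the 12-alpha-hydroxylase that directs synthesis to cholic acid, had 519, 656, 789.8 and 927 CPM on chow and 135, 179, 267, 115 and 198 CPM on high-fat diet (-2.02 ± 0.22, adjusted p = 1.3e-05). Cyp2c70, which makes muricholic acids in mice, went the other way, from 43.6, 47.4, 30.5 and 51.6 CPM to 213, 203, 219.5, 228 and 176 CPM (2.26 ± 0.26, adjusted p = 1.8e-05). Both genes separated the diets completely. Cyp7a1, the rate-limiting enzyme of bile acid synthesis, ranged widely on both diets, with 26.5, 87.3, 111 and 171 CPM on chow and 122, 62.2, 32.1, 34.9 and 44.7 CPM on high-fat diet, and did not pass (-0.75 ± 0.50, adjusted p = 0.27). The uptake transporter gene Slc10a1 (-0.99 ± 0.08), the co-receptor gene Klb (-0.99 ± 0.13) and the receptor gene Fgfr4 (-0.63 ± 0.11) fell, while the exporter subunit gene Slc51b rose by 3.80 ± 0.58.

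Of 24 genes of apolipoproteins and lipoprotein assembly, 14 fell and 4 rose, with a median of -0.47. Apob, the scaffold of very low density lipoprotein, had 10402, 13512, 9841 and 10114 CPM on chow and 6043, 7189.6, 7786, 5612 and 7744 CPM on high-fat diet (-0.67 ± 0.12, adjusted p = 0.00029). Apoa4 had 835, 325, 1036 and 1153 CPM and 713, 2557, 3377, 3754 and 2313 CPM, a rise in which replicate 1 stayed within the chow range (1.60 ± 0.44, adjusted p = 0.014), and which missed the threshold with only the knockout libraries fitted, as Pltp below did. Other falls were Pltp (-1.17), Apom (-1.09), Sort1 (-1.06) and the cholesterol acyltransferase gene Lcat (-0.94). Lpl, the lipoprotein lipase that adult hepatocytes make little of, rose from 13.6, 16.9, 14.9 and 13.1 CPM to 57.0, 39.0, 49.1, 54.0 and 51.8 CPM (1.77 ± 0.19, adjusted p = 7.4e-06).

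Genes that mark the mature hepatocyte were lower on high-fat diet or did not pass, and none of the 16 markers rose. Of those 16, 7 fell, and their summed level was 114500 to 126130 CPM on chow and 85655 to 103720 CPM on high-fat diet, without overlap. Alb, which did not pass, makes up most of this sum, and 4 of the 16 had a log2 fold change above 0. In bulk tissue, fewer cells of a type and less RNA per cell cannot be told apart. Alb had 71723, 70216, 66562 and 59180 CPM on chow and 43555, 62597, 54945, 58948 and 59818 CPM on high-fat diet and did not pass (-0.26 ± 0.10, adjusted p = 0.057), nor did Ttr, another secreted protein gene (0.06 ± 0.10). Among 28 hepatocyte identity factors, 11 fell and 2 rose, and the 2 were lost without high-fat replicate 3, chow replicate 1 or chow replicate 2. Hnf4a, the nuclear receptor that maintains hepatocyte identity, had 661, 589.6, 487 and 574 CPM on chow and 321, 309, 262, 296 and 276 CPM on high-fat diet (-0.98 ± 0.09, adjusted p = 8.1e-07). The highest high-fat value was below the lowest chow value in Hnf4a and also in Foxa3 (-1.25 ± 0.16) and Klf15 (-0.79 ± 0.14), 2 further factors of liver gene expression. Cebpa fell (-0.36 ± 0.08), with overlap.

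Amino acid breakdown and urea cycle genes fell in 17 of 36 and rose in 2. Mat1a, which makes S-adenosylmethionine, had 4398, 4729.9, 7314 and 5794 CPM on chow and 1982, 2257, 2272, 2242 and 2052 CPM on high-fat diet (-1.36 ± 0.14, adjusted p = 1.3e-06). Oat, ornithine aminotransferase of the cells around the central vein, fell from 1896, 1629, 2109.7 and 1852 CPM to 551, 543, 744, 319.6 and 327 CPM (-1.91 ± 0.31, adjusted p = 0.00044). Otc, the urea cycle enzyme, rose by 0.53 ± 0.09, so the members of this list did not move as 1 group. Pericentral genes fell in 9 of 19 and rose in 1. Cyp2e1 had 11789, 10374, 10778 and 10214 CPM and 5679, 5499, 4873, 3090.3 and 4774 CPM (-1.17 ± 0.17, adjusted p = 7.2e-05) and the Wnt inhibitor gene Notum fell (-1.13 ± 0.14). Glul, glutamine synthetase and the most restricted pericentral marker, did not pass (0.13 ± 0.12, adjusted p = 0.41).

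P450 genes and their receptors fell in 12 of 32 and rose in 4. The receptor gene Nr1i3, also called CAR (-1.09 ± 0.13), and the reductase gene Por (-0.82 ± 0.13) fell. The 4 that rose were Cyp2b13, Cyp2b9 (3.86), Cyp2a4 (4.38) and Cyp2c55 (1.87), while Cyp2b10, the usual reporter of CAR activity, did not pass (0.89 ± 0.78, adjusted p = 0.4). Genes of conjugation and of the NRF2 response rose in 11 of 29 and fell in 8. Gsta1 had 0.706, 0.258, 0.283 and 0.353 CPM on chow and 5.66, 29.8, 51.7, 43.9 and 23.9 CPM on high-fat diet, and Gstm3 had 12.1, 5.77, 7.58 and 10.95 CPM and 41.5, 120.2, 203, 165 and 96.1 CPM (3.78 ± 0.46, adjusted p = 5.5e-05). In both, replicate 1 was the lowest high-fat library and still above all chow libraries. Nqo1 rose by 1.04 ± 0.24, with replicate 1 below the chow range, and the metallothionein genes Mt1 and Mt2 fell (-1.38 ± 0.38 and -1.70 ± 0.41).

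Glucose and insulin genes split, with 9 of 31 higher and 8 lower. Pklr, liver pyruvate kinase, had 114, 115, 108 and 118 CPM on chow and 291, 369.6, 456, 562 and 436 CPM on high-fat diet (1.90 ± 0.16, adjusted p = 5.5e-07). Hk2, a hexokinase that normal hepatocytes express weakly, rose from 1.96, 1.94, 1.84 and 2.25 CPM to 5.76, 12.1, 15.5, 14.4 and 11.997 CPM (2.58 ± 0.24, adjusted p = 7.3e-07). Pck1, the gluconeogenic carboxykinase, had 4015, 3456, 5664 and 4018 CPM and 2121, 1485, 2061, 1972 and 1284 CPM and fell (-1.26 ± 0.23, adjusted p = 0.00075). In the growth hormone axis 3 of 14 rose and 2 fell, and 1 rose without high-fat replicate 2 or 5 or chow replicate 4. Igf1 did not pass (-0.06 ± 0.12, adjusted p = 0.75). Hepatokine genes rose in 2 of 19 and fell in 4, and 1 rose without high-fat replicate 3 or 5 or chow replicate 1, 2 or 3, or with no filter on low counts. Fgf21 had 10.16, 9.91, 8.57 and 12.8 CPM on chow and 1.40, 6.06, 3.28, 7.19 and 6.94 CPM on high-fat diet, lower in all 5 libraries but short of the threshold (-1.05 ± 0.43, adjusted p = 0.073), Angptl4 fell (-1.06 ± 0.15) and Gdf15 rose by 1.29 ± 0.43, a call lost without any of 5 single libraries and with no filter on low counts.

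Several smaller groups moved in part. Of 20 circadian clock genes, 6 rose and 5 fell: Nr1d1 fell from 134, 142, 138 and 133 CPM to 41.2, 59.6, 30.8, 42.5 and 64.2 CPM (-1.52 ± 0.21) and Per2 rose from 23.9, 19.1, 29.9 and 22.9 CPM to 47.7, 45.4, 46.2, 48.5 and 46.3 CPM (0.97 ± 0.12). The time of day of tissue collection is not given, so its part was not tested. Of 28 genes of the unfolded protein and integrated stress responses, 7 rose and 5 fell, and the 7 became 4 without chow replicate 1, 2 or 3. Atf3 rose by 2.76 ± 0.29, Atf4 fell (-0.41 ± 0.07) and the chaperone gene Hspa5 did not pass (0.12 ± 0.32). Oxidative phosphorylation subunits fell in 8 of 41 and rose in 4, against 16.2% and 17.4% of all genes. Of them 4 fell without high-fat replicate 1, and 5 fell without high-fat replicate 3 or 5 or chow replicate 1, with no filter on low counts, without the ribosomal RNA gene or with only the knockout libraries. Of 23 genes of ceramide and sphingomyelin metabolism 9 rose and 2 fell, and 1 fell without any single library other than high-fat replicate 3 and under each other scaling, filter or tool tried. The sphingomyelinase gene Smpd3 was at 0.326, 1.25, 3.33 and 1.81 CPM on chow and 15.6, 15.3, 30.8, 28.5 and 18.01 CPM on high-fat diet (3.75 ± 0.48, adjusted p = 6.7e-05). Among iron genes, 4 of 19 rose and 6 fell, with Hamp2 at 3.21, 1.72, 2.48 and 2.12 CPM and 5.85, 27.6, 30.6, 45.3 and 33.9 CPM (3.61 ± 0.55, adjusted p = 0.00031) and the hepcidin gene Hamp short of the threshold (-0.94 ± 0.53, adjusted p = 0.19).

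Acute phase genes did not move as a group: 4 of 27 rose and 5 fell. Without high-fat replicate 1 or chow replicate 1, 9 fell. Serpina3k, an abundant protease inhibitor gene, had 10068, 9204, 7810.4 and 8218 CPM on chow and 6152, 2428, 2483, 1752 and 2119 CPM on high-fat diet (-1.56 ± 0.31, adjusted p = 0.0019), with replicate 1 nearest to chow. Saa1 ranged from 45.4 to 1073 CPM within the chow group and did not pass (-1.58 ± 1.05). Complement and coagulation genes fell in 16 of 43 and rose in 9. C3, the central complement protein, had 8287, 11625, 8804 and 10092 CPM and 6104, 5316, 4842, 4574 and 4831 CPM (-0.92 ± 0.12, adjusted p = 2e-05), while C3ar1, the receptor of its fragment on myeloid cells, rose from 2.88, 3.45, 3.19 and 2.47 CPM to 13.2, 5.89, 7.16, 8.34 and 7.34 CPM (1.48 ± 0.25, adjusted p = 0.0002).

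Genes of lipid-associated macrophages showed the highest share of rises of any list: 16 of 18 rose, none fell, and the median was 2.04. These macrophages are known to gather around lipid-laden or dying cells. Gpnmb had 0.217, 0.172, 0.0708 and 0.618 CPM on chow and 15.9, 6.50, 12.5, 16.8 and 11.9 CPM on high-fat diet (5.43 ± 0.39, adjusted p = 1.1e-07), and Mmp12, macrophage elastase, had 0.543, 0.302, 0.212 and 0.486 CPM and 13.4, 15.0, 13.3, 17.3 and 13.6 CPM (5.19 ± 0.21, adjusted p = 4.3e-11). The 5 high-fat libraries were close to one another for Mmp12, replicate 1 included. Trem2, the lipid-sensing receptor that defines these cells, rose from 0.326, 0.474, 0.142 and 0.662 CPM to 1.54, 2.38, 1.88, 2.96 and 2.51 CPM (2.41 ± 0.41, adjusted p = 0.00021). Also higher were the integrin gene Itgax (2.95 ± 0.32), Cd63 (2.57 ± 0.46), the osteopontin gene Spp1 (2.31 ± 0.35), which bile duct cells also make, Capg (2.17 ± 0.23) and the galectin gene Lgals3 (2.13 ± 0.28). The 2 members that did not pass were Plin2, which hepatocytes express, and Fabp5 (1.16 ± 0.44). The summed level of the list overlapped between diets, at 918 to 1039.9 CPM on chow and 733 to 1257 CPM on high-fat diet, and Plin2 makes up most of it.

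Markers of resident Kupffer cells moved in both directions. Of 17, 4 rose and 1 fell, and without high-fat replicate 1 there were 2 higher and 4 lower, with 2 higher also without any other single library except high-fat replicate 2 and with no filter on low counts, and 2 lower with DESeq2 or limma voom. The markers that rose, C1qa, C1qb, C1qc and Cd68, are shared by other macrophages. Clec4f, which defines Kupffer cells, had 50.8, 59.6, 68.6 and 62.4 CPM on chow and 95.01, 53.0, 49.5, 46.6 and 60.5 CPM on high-fat diet (0.01 ± 0.26, adjusted p = 0.98). Timd4, a marker of long-lived Kupffer cells, had 3.80, 5.34, 4.11 and 3.89 CPM and 9.50, 2.45, 1.06, 0.907 and 2.05 CPM, lower than all chow libraries in replicates 2 to 5 and higher than all of them in replicate 1. Without replicate 1 it was -1.39 (adjusted p = 0.043), and with it -0.47 ± 0.67 (adjusted p = 0.62). Cd163, a scavenger receptor of resident macrophages, fell from 14.6, 17.8, 17.8 and 12.2 CPM to 6.04, 4.12, 1.18, 2.9997 and 5.29 CPM (-2.01 ± 0.42, adjusted p = 0.0023).

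Monocyte and dendritic cell markers rose in 8 of 14 and none fell, with a summed level of 67.7 to 83.9 CPM on chow and 99.2 to 117 CPM on high-fat diet, whose part in the rises of chemokine and immune genes was not tested. Ccr2, the receptor that brings monocytes from the blood, had 0.598, 0.862, 0.354 and 0.707 CPM on chow and 3.65, 7.25, 7.13, 7.32 and 7.40 CPM on high-fat diet (3.32 ± 0.29, adjusted p = 4.3e-07). High-fat replicates 2 to 5 were nearly equal and replicate 1 lay at about the midpoint between them and chow. Ly6c2, a marker of inflammatory monocytes, rose by 2.83 ± 0.42. Chemokines and their receptors rose in 20 of 31 and fell in 2, with a median of 1.08. Ccl2, the ligand of Ccr2, had 0.272, 0.388, 0.425 and 0.530 CPM and 2.01, 7.65, 3.40, 3.70 and 2.88 CPM (3.26 ± 0.53, adjusted p = 0.00021). Toll-like receptor, inflammasome, IL-1 and TNF genes rose in 15 of 33 and fell in 1, and 0 fell without high-fat replicate 2 or 5 or chow replicate 3 and 2 without high-fat replicate 1 or chow replicate 2. Tlr2, a receptor of bacterial lipoproteins, had 1.68, 1.90, 1.77 and 2.03 CPM on chow and 9.50, 9.73, 8.71, 10.6 and 9.19 CPM on high-fat diet (2.36 ± 0.20, adjusted p = 2.2e-07), whereas Tnf was higher in all 5 high-fat libraries but did not pass (1.06 ± 0.47, adjusted p = 0.089).

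Antigen presentation by MHC class II rose in 10 of 12 genes, and none fell. In all 10, high-fat replicate 2 was the high-fat library nearest to chow, as it was in 26.2% of all genes that passed. H2-Aa had 27.3, 23.3, 23.7 and 16.2 CPM on chow and 49.9, 37.5, 76.4, 85.7 and 67.7 CPM on high-fat diet (1.49 ± 0.35, adjusted p = 0.005), and H2-Ab1 rose by 1.42 ± 0.36. Interferon-stimulated genes rose in 15 of 34 and fell in 1, which did not hold without high-fat replicate 3, 4 or 5 or chow replicate 1, 3 or 4 and, with all libraries, under no other scaling, filter or tool than RLE size factors and DESeq2. Replicate 2 was the high-fat library nearest to chow in 11 of these 16 (68.8%). They were led by Ifi27l2a (1.77 ± 0.28) and Ifi44 (1.302 ± 0.22), while Isg15 and Irf7 did not pass (0.07 ± 0.18 and 0.09 ± 0.15). S100 and annexin genes rose in 10 of 19 and fell in 1, or 0 without high-fat replicate 3 or chow replicate 3. Anxa2 had 11.4, 10.1, 7.37 and 9.76 CPM and 23.5, 94.8, 70.2, 95.6 and 64.0 CPM (2.84 ± 0.35, adjusted p = 5.3e-05). S100g had 0 counts in every chow library and 84 on high-fat diet, at least 15.4-fold higher against a floor of 3 counts over the chow group; the 95% counting interval of the ratio starts at 12.2. Lysosomal genes rose in 16 of 38 and fell in 5, with Lamp1 at 0.27 ± 0.06.

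Lymphocyte and neutrophil markers gave few or no calls. None of 16 T and NK cell markers passed with all libraries, and 1 did without high-fat replicate 2. Cd3e stood at 0.598, 0.215, 0.708 and 0.177 CPM on chow and 0.515, 0.204, 0.546, 0.523 and 0.0991 CPM on high-fat diet, and the summed list at 5.52 to 10.3 CPM and 4.63 to 14.2 CPM. Of 12 B and plasma cell markers 2 rose and 1 fell: the immunoglobulin gene Igha had 5.11, 6.38, 2.27 and 5.12 CPM and 2.67, 0.510, 1.18, 0.802 and 0.661 CPM (-2.07 ± 0.40, adjusted p = 0.00086). The number higher was 1 without high-fat replicate 1 or 3, or chow replicate 2, 3 or 4, and 0 with limma voom or the stricter filter. The summed level of the list was 398.1 CPM in high-fat replicate 1, 167 to 221 CPM in the other 4 high-fat libraries and 141 to 225 CPM on chow. Of 5 neutrophil markers Mmp8 passed (1.95 ± 0.72, adjusted p = 0.047), and no marker passed once any single library other than high-fat replicate 1 or chow replicate 4 was left out, with DESeq2, with either other filter or with only the knockout libraries. S100a8 had 0.761, 0.646, 0.142 and 0.795 CPM and 0.842, 1.70, 0.971, 0.872 and 1.62 CPM and did not pass (0.98 ± 0.41, adjusted p = 0.07). In wild type it had a log2 fold change of 3.94 ± 0.57, and the difference between genotypes had an unadjusted p of 0.00069 and an adjusted p of 0.44.

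Most collagen and matrix genes rose in knockout liver on high-fat diet, but the most abundant member of each list was lower. Col18a1 had 457 to 535 CPM on chow and 358 to 385 CPM on high-fat diet. Fn1 had 725 to 952 CPM on chow and 555 to 676 CPM on high-fat diet. Of 23 collagens 14 rose and 2 fell, and of 45 matrix and remodelling genes 33 rose and 3 fell, with medians of 1.05 and 1.06. Col1a1, the main fibrillar collagen of scar tissue, had 4.08, 3.02, 3.05 and 5.26 CPM on chow and 24.9, 38.7, 37.4, 57.4 and 47.0 CPM on high-fat diet (3.40 ± 0.29, adjusted p = 1.4e-06). Col3a1 had 13.4, 10.9, 9.06 and 12.3 CPM and 56.0, 89.2, 99.9, 95.1 and 100.3 CPM (2.94 ± 0.20, adjusted p = 1.3e-07). In both, high-fat replicate 1 was the lowest of the 5 and still well above the highest chow value. Timp1, an inhibitor of matrix proteases, rose by 3.40 ± 0.44, and the matrix crosslinking enzyme gene Loxl2 by 1.91 ± 0.20.

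Stellate cells, which store retinoid and turn into collagen-producing myofibroblasts, had markers that rose in 11 of 21 and fell in 1. The 1 that fell, Ecm1, did not pass without high-fat replicate 2, 3 or 4 or chow replicate 1 or 2, and 2 fell without chow replicate 3. The summed level was 269 to 367 CPM on chow and 377 to 437 CPM on high-fat diet. Acta2, smooth muscle actin and the usual mark of activation, had 0.869, 0.905, 2.20 and 1.502 CPM and 1.36, 8.78, 3.07, 8.06 and 4.99 CPM (1.98 ± 0.50, adjusted p = 0.0069), and replicate 1 lay within the chow range. Tagln rose from 2.72, 2.80, 4.25 and 4.06 CPM to 5.71, 18.5, 11.8, 17.1 and 15.5 CPM without overlap (2.002 ± 0.29), and Lrat, of retinoid storage, rose by 0.76 ± 0.18. Their part in the collagen result was not tested. In the TGF-beta list 11 of 29 rose and 4 fell, 2 without high-fat replicate 3 or chow replicate 1, 2 or 4, with the receptor gene Tgfbr2 at 1.45 ± 0.14, Tgfb1 at 0.47 ± 0.11 and the target gene Ctgf short of the threshold at 0.00 ± 0.33. Bile duct markers rose in 6 of 14, among them Cd24a (1.49 ± 0.32) and the low-level keratin gene Krt19 (1.07 ± 0.39), whose call was lost without any of 6 single libraries, while Epcam did not pass (0.44 ± 0.37).

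Mmp12 and Mmp13 are shown as sequence because both metalloprotease genes were nearly silent on chow and rose together. Mmp13 had 0.163, 0.172, 0 and 0.0442 CPM on chow and 1.08, 3.91, 3.92, 3.59 and 2.88 CPM on high-fat diet (4.86 ± 0.60, adjusted p = 1.3e-05). The 100 bases before each transcription start, from RefSeq on GRCm38.p6, lie on the plus strand at chr9:7347274-7347373 for Mmp12 and chr9:7272414-7272513 for Mmp13, and are printed 5′ to 3′. Capitals mark the motif TGANTCA, the binding letters of AP-1 factors.
Mmp12: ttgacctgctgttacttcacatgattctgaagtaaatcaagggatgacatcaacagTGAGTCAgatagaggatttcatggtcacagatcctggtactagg
Mmp13: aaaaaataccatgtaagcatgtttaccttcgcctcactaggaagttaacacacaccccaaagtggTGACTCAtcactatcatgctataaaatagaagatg

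The motif begins 44 bases before the start of Mmp12 and 35 before that of Mmp13. Searched on both strands in RefSeq windows of 300 bases, 250 before the start and 50 after, it was found in 6 of the 31 matrix genes with a window (19.4%) and in 8.97% of all 27025 genes with one. Of the 6, 2 rose, the 2 shown, and 1 fell, Ecm1. Efemp1 did not pass, and Mmp3 and Mmp7 were too low to test. In the whole list 33 of 45 tested genes rose. A match is a stretch of letters and no measure of binding.

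Cell division genes rose on high-fat diet. Of 37 cell cycle and replication genes 28 rose and 1 fell, with a median of 1.49; the 1 that fell, Tk1, did not pass without high-fat replicate 2, 3, 4 or 5 or chow replicate 1 or 2, or with only the knockout libraries. Mki67, the standard proliferation marker, had 1.90, 1.46, 1.63 and 1.32 CPM on chow and 5.99, 6.60, 12.9, 10.9 and 9.09 CPM on high-fat diet (2.54 ± 0.26, adjusted p = 1.4e-06). Top2a, the topoisomerase of dividing cells, had 0.326, 0.474, 0.425 and 0.883 CPM and 2.76, 3.20, 6.59, 5.23 and 3.93 CPM (2.998 ± 0.33, adjusted p = 3.8e-06). Both separated the diets in all 9 libraries. The mitotic genes Cdc20 (3.38 ± 0.46) and Cenpe (3.31 ± 0.39), the kinase gene Cdk1 (2.73 ± 0.48) and the replication helicase genes Mcm5 (2.47 ± 0.44) and Mcm6 (2.33 ± 0.37) rose as well. Which liver cells divided is not shown by these bulk values, and macrophage and stellate cell markers rose in the same libraries, whose part was not tested. Histone genes rose in 4 of 16, or 2 under the stricter filter.

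The promoters of Top2a and Cdk1 are shown because cell cycle genes moved together and many carry the motif TTTGAA, known as the CHR element. The 100 bases before each start lie on the minus strand at chr11:99024190-99024289 for Top2a and chr10:69352913-69353012 for Cdk1 (RefSeq, GRCm38.p6), with the motif on either strand in capitals.
Top2a: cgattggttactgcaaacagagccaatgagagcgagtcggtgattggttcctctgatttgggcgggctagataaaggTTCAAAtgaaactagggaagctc
Cdk1: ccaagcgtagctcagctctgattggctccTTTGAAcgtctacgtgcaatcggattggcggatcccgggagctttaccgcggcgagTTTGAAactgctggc

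In the same 300-base windows the motif was found in 13 of 30 cell cycle genes (43.3%) and in 20.2% of all genes. Of the 13, 12 rose, in a list where 28 of 37 rose with or without the motif, against 17.4% of all genes tested. Of 5 further motifs searched in the same way, CACGTGAC, the letters bound by TFEB, was in 7 of 29 lysosomal genes (24.1%) against 2.55% of all genes. Of the 7, 2 rose and 0 fell, in a list where 16 of 38 rose. The antioxidant element TGACNNNGC was in 6 of 26 NRF2 and conjugation genes (23.1% against 14%), of which 2 rose and 2 fell. The sterol element TCACNCCAC was in 1 of 20 cholesterol genes (5% against 1.44%), which did not pass. AGGTCANAG, part of the element of PPAR alpha, was in 0 of 24 fatty acid oxidation genes (2.31% of all), and TTCNNNGAA, the letters bound by STAT5, in 0 of 13 male-predominant genes (9.55% of all). No match says only that these letters are not in this window. The motifs were chosen with the expression results known, and these shares are a description.

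**Figure D3:**
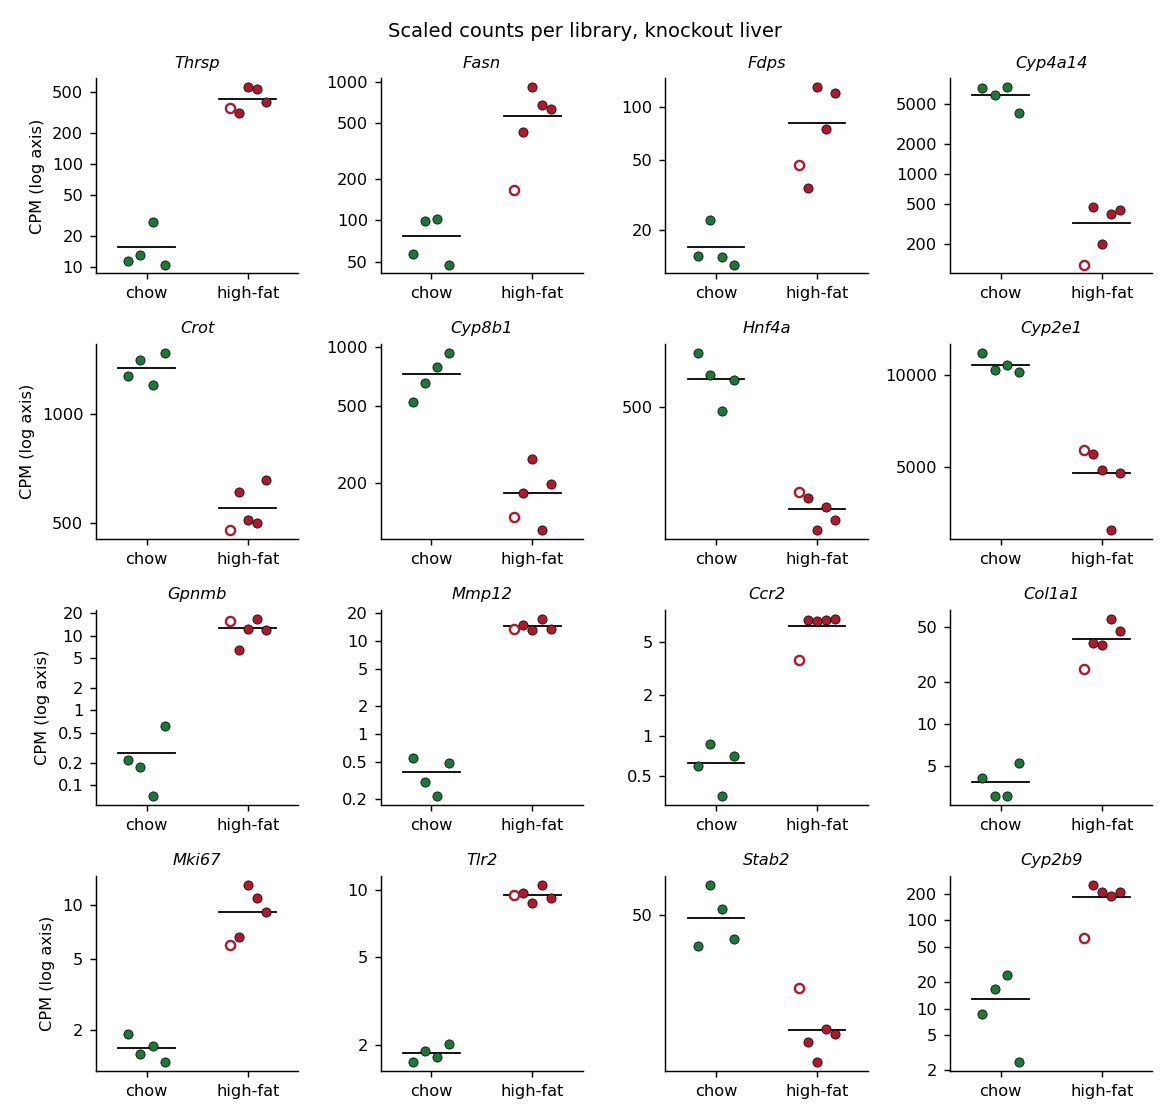
CPM of 16 genes in each knockout library on a log axis, chow (n = 4) at left and high-fat diet (n = 5) at right; open circles are high-fat replicate 1 and lines are group means. The 16 genes were picked for display, and the diets do not overlap in any of them, against 26.5% of all genes tested. Other named genes, such as Scd1, Plin2 and Pparg, do overlap. Replicate 1 lies nearest to chow in Fasn, Hnf4a, Cyp2e1, Ccr2, Col1a1, Mki67, Stab2 and Cyp2b9.

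Genes of sex-biased expression separated high-fat replicate 1 from the rest of its group. Many liver genes are expressed more in males or more in females because growth hormone reaches the liver in pulses in males and more evenly in females. Of 21 male-predominant genes, 5 fell and 3 rose with all 9 libraries, with a median of -1.07. Without high-fat replicate 1, 15 fell and 1 rose, with a median of -2.57. The counts also depended on the tool, since with all 9 libraries limma voom called 14 lower and 2 higher, with a median of -2.24, and DESeq2 called 7 lower and 4 higher. In all 21 genes replicate 1 was higher than each of the other 4 high-fat libraries, and in 17 it was at or above the lowest chow library, while replicates 2 to 5 all lay below all chow libraries in 15. Leaving out chow replicate 1, 2 or 3 moved the number higher to 1.

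Hsd3b5 (chr3:98618634-98630252, mm10), a steroid dehydrogenase of male liver, had 40.9, 37.2, 7.93 and 16.7 CPM on chow and 74.0, 0.204, 0.516, 0.0349 and 0.231 CPM on high-fat diet. With all libraries it did not pass (-0.83 ± 1.38, adjusted p = 0.68), and without replicate 1 it was -6.62 (adjusted p = 0.00011). Serpina1e, a protease inhibitor gene, had 1352, 1979, 1450.2 and 1322 CPM and 1421, 33.7, 60.9, 10.1 and 28.3 CPM, and the organic anion transporter gene Slco1a1 had 210.4, 213, 106 and 161 CPM and 159, 11.2, 8.86, 3.14 and 9.48 CPM. In these 2 genes replicate 1 lay within the chow range, and the other 4 libraries far below the lowest chow value. Mup7, a major urinary protein gene with near-identical copies, had 1544, 1067, 2993 and 899 CPM and 3013, 10.4, 80.9, 0.279 and 5.65 CPM. Selenbp2 was far highest in replicate 1, with 217, 9.63, 40.6, 11.1 and 20.2 CPM against 3.86, 4.48, 10.4 and 5.26 CPM on chow. It rose with all libraries (3.34 ± 1.12, adjusted p = 0.037) and not without replicate 1 (1.82, adjusted p = 0.1). Elovl3 and the proteoglycan gene Cspg5 fell with replicate 1 included (-3.20 ± 0.42 and -3.19 ± 0.48).

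**Figure D4:**
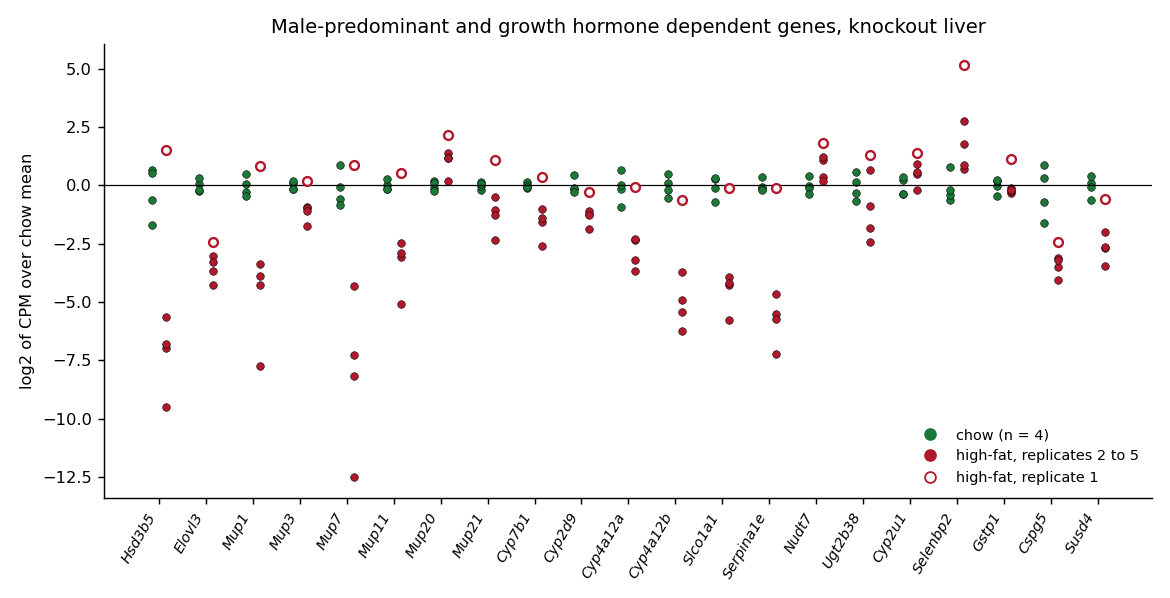
Each of the 21 male-predominant genes is shown with log2 of each library's CPM over the chow knockout mean: chow in green, high-fat replicates 2 to 5 in red and replicate 1 as an open circle. Replicate 1 is above the other 4 high-fat libraries in all 21 genes and within or above the chow range in 17.

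Female-predominant genes rose in 7 of 19 and fell in 4, or in 2 with DESeq2 or the stricter filter. Cyp2b9 had 8.75, 16.8, 23.8 and 2.47 CPM on chow and 63.1, 254, 212, 191 and 208 CPM on high-fat diet (3.86 ± 0.63, adjusted p = 0.00055), and Cyp2a4 had 2.99, 2.20, 3.05 and 1.02 CPM and 4.96, 41.9, 37.004, 95.3 and 54.6 CPM (4.38 ± 0.70, adjusted p = 0.00044). Replicate 1 was the lowest high-fat library for both. Hao2 had 0.109, 0.302, 0.212 and 0.177 CPM and 1.68, 9.87, 4.74, 6.87 and 7.96 CPM, again lowest in replicate 1. Cux2, a female-predominant transcription factor gene, fell (-1.43 ± 0.41), as did Cyp2c40 (-1.88 ± 0.54), so the list did not move as 1 group. Ghr, the growth hormone receptor, rose slightly with all libraries (0.25 ± 0.09, adjusted p = 0.047) and had 0.23 (adjusted p = 0.063) without replicate 1; it also missed the threshold without 6 other single libraries.

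The diet effect was compared with that in wild type, where 4946 genes passed (29.4%). Of these, 3613 also passed in knockout in the same direction, which is 63.9% of the knockout calls and 73.0% of the wild-type calls, and 2 passed in opposite directions. Across the 16830 genes the 2 sets of log2 fold changes had a Pearson correlation of 0.82 and a Spearman correlation of 0.76. They share no library, although all were fitted together, and genes are not independent replicates. The direct test of the difference between genotypes called 0 genes (0%) with edgeR after adjustment, with 1110 (6.6%) at an unadjusted p under 0.05, and DESeq2 called 2. With the edgeR test and all libraries, a difference of the diet effect between knockout and wild type was not detected in any single gene.

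**Figure D5:**
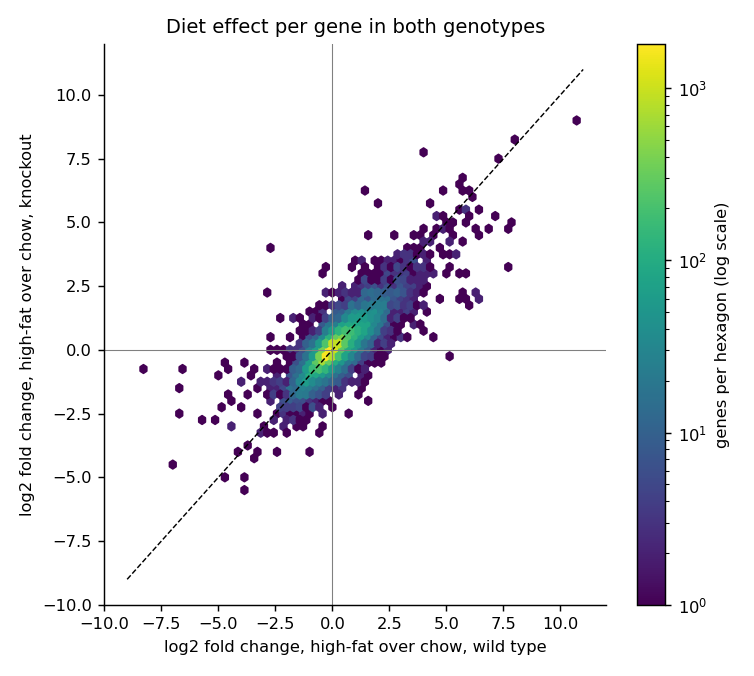
Hexagons count genes by their log2 fold change of high-fat over chow in wild type (x axis) and in knockout (y axis), with colour on a log scale for the 16830 genes tested. The dashed line marks equal change, and distance from it was not measured. The 2 sets of changes have a Pearson correlation of 0.82, and 2 genes called in both genotypes have opposite signs.

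The 5 genes with the smallest p for the difference were Cd93, Trim32, Adrb1, Pja1 and Ccdc68, all with an adjusted p of 0.42. Cd93, an endothelial and myeloid surface protein, had 8.59, 10.98, 11.97 and 9.58 CPM and 15.2, 15.1, 12.2, 13.8 and 14.8 CPM in knockout and 8.56, 8.21 and 5.74 CPM on chow and 18.6, 20.6, 18.2 and 21.998 CPM on high-fat diet in wild type. It rose in both genotypes, by 0.47 ± 0.12 in knockout and 1.40 ± 0.15 in wild type, a difference of -0.93 ± 0.19 (unadjusted p = 0.00011). Adrb1, the beta-1 adrenergic receptor, had 0.598, 0.689, 1.06 and 0.707 CPM on chow and 0.796, 0.476, 0.516, 0.698 and 0.397 CPM on high-fat diet in knockout, and 0.282, 0.175 and 0.355 CPM and 0.726, 1.36, 1.26 and 1.01 CPM in wild type, a difference of -2.39 ± 0.50.

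Sinusoidal endothelial markers fell in 6 of 21 in knockout and rose in 2, with a median of -0.19, and in wild type rose in 10 and fell in 1, with a median of 0.51. For all 21 the knockout change lay below the wild-type change, and 14 had an unadjusted p under 0.05 for the difference against 6.6% of all genes. Other lists leaned the same way: the knockout change was the lower one in 19 of 21 stellate cell markers, 16 of 18 genes of lipid-associated macrophages, 15 of 17 Kupffer cell markers, 38 of 45 matrix genes and 5 of 5 neutrophil markers. In these, 2, 2, 3, 11 and 4 members had an unadjusted p under 0.05, and no test compared the lists. Lists also leaned the other way, with the knockout change the lower one in 2 of 28 cholesterol genes and 1 of 21 male-predominant genes. It was the lower one in 6 of 36 amino acid genes and 8 of 34 interferon-stimulated genes. The same share over all genes was not counted, so these counts have no background beside them. No member of these lists passed after adjustment. Members of a list share cells and libraries, so the 21 endothelial markers do not count as 21 separate observations. Stab2, the hyaluronan scavenger receptor of these cells, had 43.3, 57.3, 51.3 and 44.6 CPM on chow and 35.7, 27.9, 25.4, 29.5 and 28.9 CPM on high-fat diet in knockout (-0.74 ± 0.13, adjusted p = 0.00027), and 38.2, 35.5 and 32.5 CPM and 34.97, 50.9, 31.4 and 42.7 CPM in wild type (0.18 ± 0.15, adjusted p = 0.4). In knockout the diets separated completely. Its difference was -0.91 ± 0.20 (unadjusted p = 0.00019, adjusted p = 0.42). Stab1 had 35.6, 40.5, 30.7 and 35.7 CPM and 32.01, 16.8, 17.5, 21.9 and 19.3 CPM in knockout, where high-fat replicate 1 lay within the chow range. In wild type Stab1 had 26.2, 23.004 and 24.3 CPM and 25.5, 37.6, 27.03 and 34.1 CPM. The difference for Stab1 was -1.08 ± 0.25 (unadjusted p = 0.00048). Replicate 1 was the high-fat library nearest to chow in 6 of the 8 endothelial markers that passed in knockout (75%), against 34.4% of all genes that passed. Ehd3 fell in both genotypes (-0.81 ± 0.11 in knockout and -0.48 ± 0.13 in wild type), while Selp, the P-selectin of inflamed endothelium, rose in both, by 0.81 ± 0.21 and 1.73 ± 0.24.

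Marker lists of other cells were checked for the tissue label. Of 6 tested erythroid markers none passed, with Hba-a1 at 76.0, 57.6, 81.0 and 64.0 CPM and 91.0, 136, 78.7, 294 and 96.6 CPM, highest in high-fat replicate 4. Of these markers 2 rose without high-fat replicate 1 or 3 or with DESeq2, and 1 fell without high-fat replicate 1 or chow replicate 3. Of 5 adipocyte markers 1 fell and 1 rose, or 2 without high-fat replicate 4 or chow replicate 4 or with limma voom. Fabp4 rose (2.01 ± 0.19), a gene that macrophages also express, while Adipoq was too low to test. Mesothelial markers rose in 2 of 8, at levels near 1 CPM, and the number fell to 0 or 1 without any 1 library other than high-fat replicate 1, with limma voom, under the stricter filter and with only the knockout libraries, among them Wt1 (1.26 ± 0.45, adjusted p = 0.037).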

How the data were processed

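RNA from the livers was sequenced after depletion of ribosomal RNA, and the labels describe snap-frozen tissue and a Qiagen RNA kit. The labels' protocols name a small RNA library kit and give 2 read lengths that cannot both hold. The deposited values are estimated counts per gene, with no normalization by the authors; TopHat2, Cuffdiff and genome build mm10 are named in the submitters' processing notes without a role. The table held 23258 genes, each with a total of at least 10, and 22 names turned into dates were restored from coordinates.

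Counts were rounded to whole numbers. Genes with low counts were removed by filterByExpr, and 16830 were fitted over all 16 libraries in 4 groups with TMM scaling and robust quasi-likelihood tests (edgeR 4.0.16, R 4.3.3, 12 residual degrees of freedom). P-values were adjusted by Benjamini-Hochberg over all genes tested, with a threshold of 0.05. Values after ± are approximate standard errors of log2 fold changes. Each was worked back from the test, as the absolute log2 fold change over the square root of its F statistic. They are least certain for genes with counts near 0 on one diet. Wild-type libraries thus contribute to the spread. Log2 CPM for the principal components used a prior count of 2. Single values per library were compared by exact two-sided permutation tests. Alternatives were RLE and upper-quartile scaling, other filters, DESeq2 1.42.0, limma voom 3.58.1, the ribosomal RNA gene left out, knockout libraries alone, a test against a 1.5-fold change and each library left out.

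In simulated counts for this comparison over 16454 genes, 43.3% of genes changed 1.5-fold, 71.6% of those changed 2-fold and 90.9% of those changed 4-fold were recovered, 0 with the wrong sign, and 7 unchanged genes were called. The changed genes numbered 67, 67 and 66, far fewer than the 5650 that passed in the data, and no library was made to stand apart. Recovery and false calls in the data can therefore differ from these values.

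Named genes were the 12 largest rises and 12 largest falls (groups without overlap, a mean of 2 CPM or more on one diet, not unnamed gene models), the first 2 genes of each list with up to 2 further passing members of largest change, Srebf2, the sex chromosome list, and the 5 smallest p-values for the genotype difference. Other members named in the text were chosen after their values were seen. The members and lists were chosen with earlier results of these data known. A few genes that this rule names are not reported here.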

Additional observations from a re-analysis of the deposited data

Results flagged for a closer look

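Among the named genes, 400 groups of knockout libraries were examined for 1 library far from the others of its diet by Dixon's test, and 30 were found. Chance gives about 1 in 20 groups. Of the 30, 13 lay in high-fat replicate 1, and all values are in CPM. High-fat replicate 1 was apart from the other 4 high-fat libraries in these genes. Cyp2c54 was at 110 against 2.65 to 14.8 in the others. Cyp4a12b was at 53.9 against 1.08 to 6.34 in the others. Zbtb16 was at 38.9 against 6.21 to 13.6 in the others. Clec4f was at 95.01 against 46.6 to 60.5 in the others. Timd4 was at 9.50 against 0.907 to 2.45 in the others. Ccr2 was at 3.65 against 7.13 to 7.40 in the others. Plin2 was at 518 against 934 to 1012 in the others. Cd36 was at 90.0 against 149.7 to 171 in the others. Hsd3b5 was at 74.0 against 0.0349 to 0.516 in the others. Selenbp2 was at 217 against 9.63 to 40.6 in the others. Col3a1 was at 56.0 against 89.2 to 100.3 in the others. Serpina3k was at 6152 against 1752 to 2483 in the others. C8b was at 188 against 37.3 to 55.4 in the others.

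High-fat replicate 3 was apart in 1 gene. Glul was at 1638 against 1303 to 1380 in the others. High-fat replicate 4 was apart in 2 genes. Hba-a1 was at 294 against 78.7 to 136 in the others. Slc51b was at 1.67 against 0.655 to 0.859 in the others.

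Chow replicate 1 was apart in 2 genes. Sprr1a was at 0.0543 against 0 in each of the others. Ccr1 was at 0.272 against 0 to 0.0442 in the others. Chow replicate 2 was apart in 4 genes. Msln was at 2.33 against 0.779 to 0.978 in the others. Fdps was at 22.7 against 12.7 to 14.2 in the others. Cidec was at 8.96 against 18.9 to 20.4 in the others. Apob was at 13510 against 9841 to 10400 in the others. Chow replicate 3 was apart in 5 genes. Cyp2c69 was at 8.07 against 1.46 to 1.55 in the others. Igfbp2 was at 828.6 against 321 to 373 in the others. Thrsp was at 26.98 against 10.5 to 12.9 in the others. Notum was at 22.9 against 17.7 to 18.5 in the others. Hamp was at 247 against 452 to 462 in the others. Chow replicate 4 was apart in 3 genes. A4gnt was at 0.0883 against 0 in each of the others. Ehd3 was at 68.4 against 83.7 to 86.6 in the others. Ifi44 was at 3.84 against 2.41 to 2.63 in the others.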

How the results depend on the processing

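The 5650 genes passing became 1142 when the test was against a 1.5-fold change, which asks for more than a difference from 0, and were 4631 (without chow replicate 1) to 5784 (without high-fat replicate 1) with each knockout library left out. The 1755 genes changed at least 2-fold became 1085 under the stricter filter, which tests fewer genes, and were 1545 to 1907 with each library left out. For the difference between genotypes, the 0 genes became 2 with DESeq2 and 0 to 4 with each library left out (4 without wild-type chow replicate 1, 1 without high-fat replicate 1); the cause was not tested. Of the passing genes 2922 were higher and 2728 lower, against 3103 and 2531 without the ribosomal RNA gene and 2842 and 2904 with limma voom.

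Of 200 named genes, 155 kept direction and side of the threshold in every one of 17 alternatives that gave them a value; 27 had none in at least 1, being too low to test or without an adjusted p. Of the 150 that passed, 19 did not pass in at least 1. Among them, Apoa4, Cyp2c54 and Pltp did not with only the knockout libraries, Cd22 with limma voom and Trim32 without chow replicate 2. Arntl, C8b, Cyp4a12b, Gdf15, Ghr, Krt19, Mmp8, Mogat2, Ndufa4, Sdf2l1, Selenbp2 and Wt1 each did not pass without any of 2 or more single libraries. The sign turned in 13, none of which passed with all libraries. With limma voom these were Cd3d (-0.11), Clec4f (-0.034) and Ctgf (-0.14). With 1 library left out, the log2 fold change ran from -0.13 to 0.21 in Cd3d, -0.38 to 0.23 in Cd3e, -0.18 to 0.10 in Clec4f, -0.20 to 0.14 in Ctgf, -0.068 to 0.44 in Hspa5, -0.16 to 0.008 in Igf1 and -0.023 to 0.18 in Irf7. It ran from -0.10 to 0.32 in Isg15, -0.51 to 0.46 in Msln, -0.043 to 0.10 in Pja1, -0.11 to 0.11 in Plin2, -0.15 to 0.57 in Sqle and -0.15 to 0.93 in Upk3b. No paired analysis was possible because the labels give no replicate numbers that the diets share.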
